A study of Rattus norvegicus with 6 samples.

Results

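G2 and mitosis genes drive a cell from finished DNA replication through chromosome segregation to division, and 50 of them were followed here in rat liver. Probes were matched to the genes by symbol through the RefSeq accession in the array files, and the probe with the highest mean signal stood for a gene. Of the 50 genes, 40 matched a probe and 38 were kept, their probe clearing background on 3 or more of the 6 arrays, out of 11932 genes tested in all. Nek2 was well above background on 2 arrays and Hmmr on 0, so neither was tested. No probe was matched to Anln, Bub1b, Cdc25c, Cenpe, Kif4a, Melk, Ncapd2, Ncapg, Spc24 or Top2a.

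The animals were 6 male Sprague-Dawley rats, an outbred stock, bought at 5 weeks of age and fed a basal diet. The control group of 3 was given only the vehicle, corn oil. The treated group of 3 was given carbon tetrachloride (CCl4), a solvent that injures hepatocytes, at 100 mg/kg/day. The labels give the exposure both as 28 days and as 9 weeks of dosing, and which is right is not settled here. Whole-liver RNA of each rat was hybridised to 1 Agilent 1-colour array. The 3 corn oil arrays and CCl4 replicate 1 shared the first slide, whereas CCl4 replicates 2 and 3 were on a second slide scanned on another day. Arrays were alike in brightness, with a 75th percentile of 582.6 to 675.6 signal units and 61.9% to 67.3% of probes well above background. All 9 hepatocyte markers examined passed the background filter.

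An adult liver cell rarely divides, but hepatocytes can return to the cell cycle after injury, and other liver cells, such as macrophages, can also divide. Entry into mitosis depends on the kinase Cdk1 bound to cyclin A or B, which the anaphase-promoting complex (APC/C) later switches off by marking cyclins and other proteins for destruction. Most of these genes are silent in resting cells and are transcribed together late in the cycle, through the MuvB complex with B-Myb and FOXM1.

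Of the 38 genes kept, 7 rose in CCl4 livers at a limma adjusted p below 0.05 (Benjamini-Hochberg over all genes tested), and 0 fell. The 7 were Ccna2, Pkmyt1, Aurka, Birc5, Ube2c, Kif18b and Ska1. They make 18.4% of the genes kept, where 0.637% of all genes tested passed in either direction and 0.562% passed as higher in CCl4. A change of at least 2-fold upward was seen in 27 of the 38, against 3.12% of all genes tested, and the median log2 change was 1.37, against -0.05 over all genes tested. At an unadjusted p below 0.05 33 were higher, against 9.96% of all genes tested, and 0 were lower. Another 20 genes had an adjusted p between 0.05 and 0.10. Ska1 and Cenpf were well above background on no corn oil array and therefore passed the filter through the CCl4 group alone. Without these genes 6 of 36 rose, with a median of 1.34. Of the 36, 25 were at least 2-fold higher and 31 were higher at an unadjusted p below 0.05. The calls depended on the setting, as did those over all genes tested, whose share is given in brackets. With slide as a fixed block 0 passed (0.0335%). On leaving out corn oil replicate 1, 2 or 3, the calls were 4, 2 and 0 (0.226%, 0.36% and 0.0419%). On leaving out CCl4 replicate 1, 2 or 3, they were 0, 0 and 9 (0.0503%, 0.0168% and 2.02%). With normexp background correction 19 passed (1.82% of all genes tested) at a median of 0.78, with a variance trend 13 (1.31%) and with slide as a random block 11 (0.88%). On the same arrays 3 of 8 markers of recruited macrophages rose, and their part in the result was not tested. In whole liver, more or fewer cells of a type cannot be told apart from more or less RNA per cell.

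**Figure D1:**
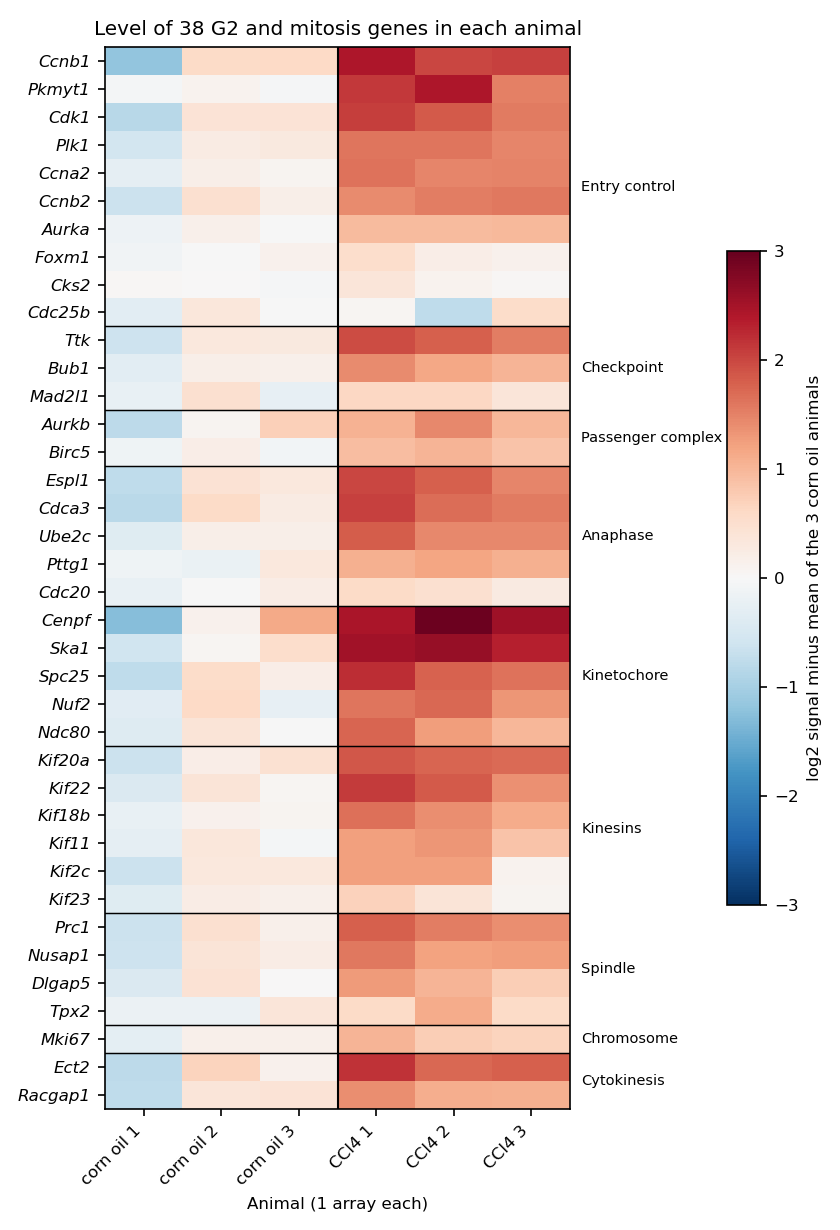
Heat map of the 38 genes kept (rows, by role) in the 6 animals (columns), coloured by log2 signal minus the gene's mean in the 3 corn oil animals. CCl4 columns are red in nearly every row, Cdc25b excepted in CCl4 replicate 2, and corn oil replicate 1 is the lowest (bluest) of the corn oil columns in 35 of 38 rows.

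The animals separated for most of these genes. Every CCl4 array lay above every corn oil array for 33 of the 38, against 11.5% of all genes tested. Without Ska1 and Cenpf, which passed the filter through the CCl4 group alone, this held for 31 of 36. The 5 genes with overlapping groups were Cdc25b, Foxm1, Mad2l1, Kif2c and Kif23. Measured from each gene's corn oil mean, the median level over the 38 genes was -0.40, 0.29 and 0.17 on the log2 scale in corn oil replicates 1, 2 and 3. It was 1.59, 1.42 and 1.18 in CCl4 replicates 1, 2 and 3, while the median over all genes tested stayed between -0.07 and 0.02 on every array. The corn oil animals were therefore not alike: replicate 1 had the lowest corn oil signal for 35 of the 38 genes, and replicate 2 the highest for 25. Among the treated animals, replicate 1 was highest for 26 genes and replicate 3 lowest for 29. The SD between animals was larger in corn oil than in CCl4 for 29 genes, with medians of 0.42 and 0.21. The largest corn oil SD, 1.2, was that of Cenpf, well above background on no corn oil array. The source of this spread was not tested. Without corn oil replicate 1 the median log2 change was 1.16. Within the first slide the distance of the single CCl4 animal from the corn oil mean had a median of 1.59 over the 38 genes. Over all genes tested this median was -0.04. Over the 36 genes well above background in some corn oil animal, this distance ran from 0.06 for Cdc25b to 2.43 for Ccnb1.

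Among the 10 measured genes that control entry into mitosis, 3 rose, with a median log2 change of 1.52. Signals are given as multiples of the array's 75th percentile, in the order of replicates 1, 2 and 3. Ccna2 encodes cyclin A2, which works with Cdk1 and Cdk2 from S phase to early mitosis. Its signal was 0.151, 0.204 and 0.192 in corn oil and 0.560, 0.498 and 0.506 in CCl4. This is a 2.88-fold rise (log2 change 1.53 ± 0.14, SE, n = 3 per group; adjusted p = 0.0223), with a narrow spread in both groups. Pkmyt1 encodes Myt1, a kinase that holds Cdk1 inactive until mitosis. It read 0.222, 0.250 and 0.228 in corn oil and 1.02, 1.26 and 0.669 in CCl4, a 4.07-fold rise (2.03 ± 0.23; adjusted p = 0.0255). The corn oil animals were nearly equal here, and CCl4 replicate 3 was the lowest treated animal. Aurka encodes the centrosomal kinase Aurora A. Its signals of 0.449, 0.548 and 0.494 in corn oil became 0.956, 0.958 and 0.979 in CCl4, a 1.95-fold rise (0.96 ± 0.11; adjusted p = 0.0255). The treated animals hardly differed from each other.

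The other entry genes did not pass. Cdk1 itself gave 0.344, 0.811 and 0.806 in corn oil and 2.55, 2.18 and 1.79 in CCl4 (log2 change 1.82, 95% confidence interval 0.96 to 2.69; adjusted p = 0.0752). Ccnb1, cyclin B1, gave 0.0283, 0.0958 and 0.0973 against 0.344, 0.259 and 0.267 (2.17, 0.99 to 3.35; adjusted p = 0.0961). In both genes corn oil replicate 1 was far below the other controls, and the groups did not overlap. Ccnb2, cyclin B2, was at 0.0445, 0.0969 and 0.0793 in corn oil and 0.185, 0.201 and 0.209 in CCl4 (1.50, 0.82 to 2.19; adjusted p = 0.0722). Plk1 encodes the Polo-like kinase that promotes mitotic entry and spindle assembly. It was at 0.253, 0.440 and 0.449 in corn oil and 1.12, 1.11 and 1.02 in CCl4 (1.56, 0.99 to 2.12; adjusted p = 0.0556), with all treated animals more than doubled over the highest corn oil animal. Foxm1, Cks2 and Cdc25b had small changes. Foxm1, the transcription factor of late cell cycle genes, read 0.308, 0.331 and 0.364 in corn oil and 0.479, 0.382 and 0.364 in CCl4 (0.28, -0.06 to 0.62; adjusted p = 0.323), so the groups touched. Cks2, a small subunit bound by Cdk1, was at 0.17 (-0.12 to 0.46; adjusted p = 0.469). Cdc25b, a phosphatase that activates Cdk1, had the lowest change of the 38 genes. Nek2, a centrosome kinase left untested, read 0.0191 to 0.0443 over the 6 arrays. The Cdc25b signal was 0.622, 0.975 and 0.771 in corn oil and 0.809, 0.460 and 1.13 in CCl4, with the treated animals on both sides of the controls (-0.05, -0.89 to 0.79; adjusted p = 0.949).

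**Figure D2:**
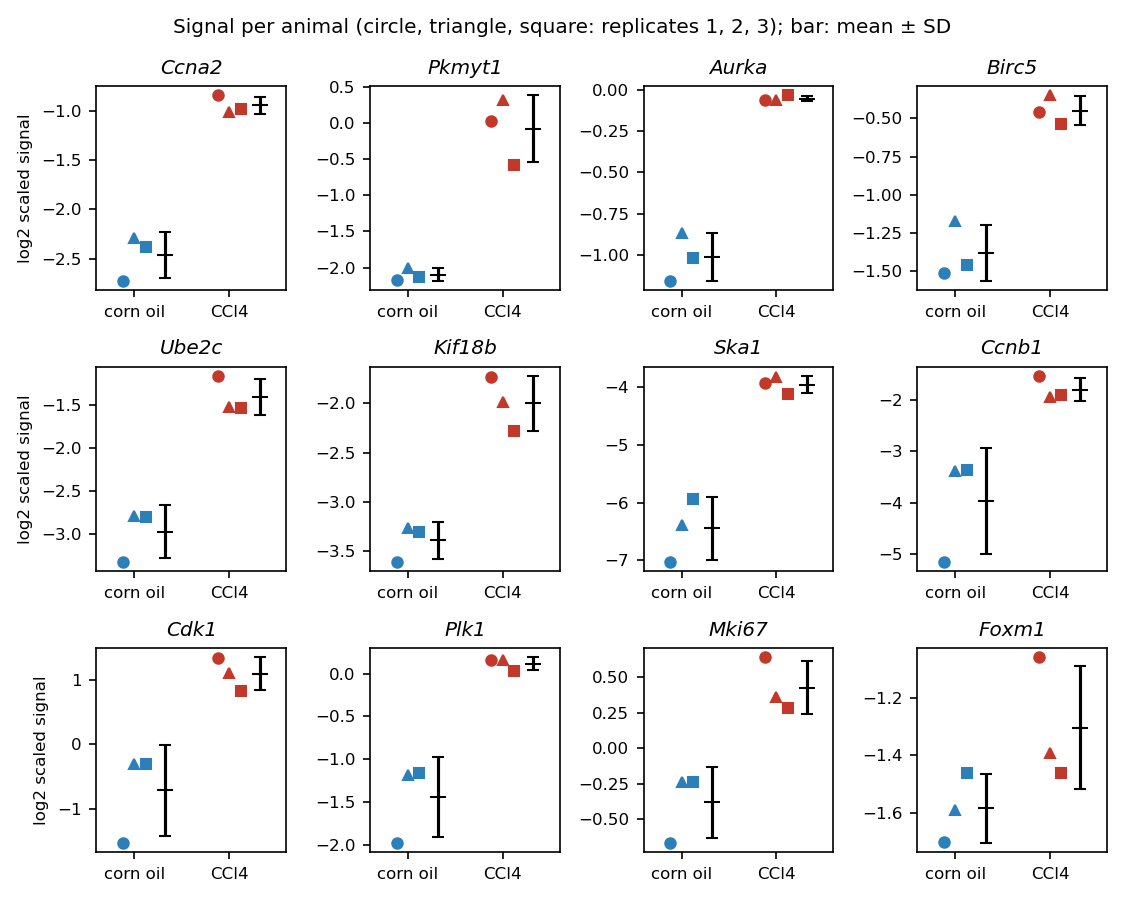
Log2 signal relative to the array's 75th percentile (y axis, scaled per gene) in the 3 corn oil and 3 CCl4 animals for 12 genes; symbols mark replicates and black bars give the group mean ± SD. The groups are apart for every gene shown except Foxm1, and corn oil replicate 1 (blue circle) lies far below the other controls for Cdk1, Ccnb1 and Plk1.

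Promoters of this gene class are known for CCAAT boxes, bound by NF-Y, upstream of a cell cycle genes homology region (CHR), bound by MuvB. RefSeq promoter windows (GRCr8 build, 250 bases before to 50 after the annotated gene start) were found for 43 of the 50 genes. Both strands were searched for CHR letters (TTTGAA or TTCGAA), for CCAAT, and for E2F letters (TTTGGCGC, TTTCCCGC, TTTCGCGC or TTTGCCGC), with 1 pair of matches overlapping in these 43 windows. CHR letters occurred in 30 of the 43 windows (69.8%), against 19.7% of all 33469 windows and 14.4% of the 10256 windows of genes tested. All 30 had a match between 100 bases before and 50 after the start, where 8.86% of all windows have one. CCAAT was present in 33 windows (76.7%, against 37.5% of all windows), and 25 (58.1%) had CCAAT upstream of CHR letters, against 4.12%. The E2F letters were found in 1 window, that of Cdk1, against 2.14% of all windows. Of the genes kept, the 22 with CHR letters had a median log2 change of 1.52 and the 9 without had 1.20. Leaving out Ska1 and Cenpf, not well above background on any corn oil array, the 20 with CHR letters had 1.43 (-0.05 to 1.90), a range that overlaps that of the 9 without (0.86 to 2.17). The upstream 250 bases are shown for Cdk1 and its B cyclins and for the 2 genes that rose and hold a match, with matched letters in capitals, 5′ to 3′ on the gene's strand.
Cdk1, chr20:19265043-19265292, plus strand: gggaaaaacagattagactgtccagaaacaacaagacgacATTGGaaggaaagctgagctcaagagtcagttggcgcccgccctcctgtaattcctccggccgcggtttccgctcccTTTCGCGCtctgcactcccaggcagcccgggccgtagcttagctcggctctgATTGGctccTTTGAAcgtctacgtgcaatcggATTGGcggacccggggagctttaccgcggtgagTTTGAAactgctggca
Ccnb1, chr2:33655226-33655475, minus strand: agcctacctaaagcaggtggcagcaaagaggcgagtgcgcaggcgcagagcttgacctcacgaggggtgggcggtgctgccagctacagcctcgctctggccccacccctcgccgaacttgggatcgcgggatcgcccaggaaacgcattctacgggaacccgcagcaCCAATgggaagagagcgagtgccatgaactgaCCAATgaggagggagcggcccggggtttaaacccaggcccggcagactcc
Ccnb2, chr8:79981659-79981908, minus strand: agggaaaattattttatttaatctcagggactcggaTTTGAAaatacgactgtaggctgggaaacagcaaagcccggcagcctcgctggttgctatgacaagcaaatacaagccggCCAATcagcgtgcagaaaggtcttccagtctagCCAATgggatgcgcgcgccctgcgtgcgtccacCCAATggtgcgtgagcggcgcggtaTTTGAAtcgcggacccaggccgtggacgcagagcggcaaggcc
Birc5, chr10:103571896-103572145, plus strand: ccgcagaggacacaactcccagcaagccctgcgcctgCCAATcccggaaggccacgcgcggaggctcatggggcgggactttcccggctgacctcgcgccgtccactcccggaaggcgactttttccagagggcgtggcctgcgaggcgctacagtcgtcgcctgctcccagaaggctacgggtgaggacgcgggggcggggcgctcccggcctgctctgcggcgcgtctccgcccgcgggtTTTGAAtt
Ska1, chr18:70080270-70080519, minus strand: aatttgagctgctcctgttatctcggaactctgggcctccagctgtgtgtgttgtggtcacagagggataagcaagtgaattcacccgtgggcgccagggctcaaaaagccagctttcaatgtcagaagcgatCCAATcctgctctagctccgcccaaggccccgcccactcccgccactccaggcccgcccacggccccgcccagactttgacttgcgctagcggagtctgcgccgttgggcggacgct
Counted from the gene start, where -1 is the last base before it, Cdk1 has CHR letters from -72 and -16 and CCAAT on the opposite strand (ATTGG) from -210, -81 and -49. Ccnb2 has CHR letters from -214, then CCAAT from -134, -101 and -68, followed by CHR letters from -43. The Ccnb1 window has CCAAT from -82 and -50 and none of the CHR letters searched, TTTGAA or TTCGAA. Other forms of the CHR were not searched, so it may still hold one. In Birc5 the CHR letters begin at -8, and in Ska1 they begin 35 bases after the start, outside the bases printed. Aurka and Kif18b, which also rose, have none of these letters in the window. The genes without a window were Ccna2, Pkmyt1, Ube2c, Aurkb, Foxm1, Racgap1 and Tpx2.

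**Figure D3:**
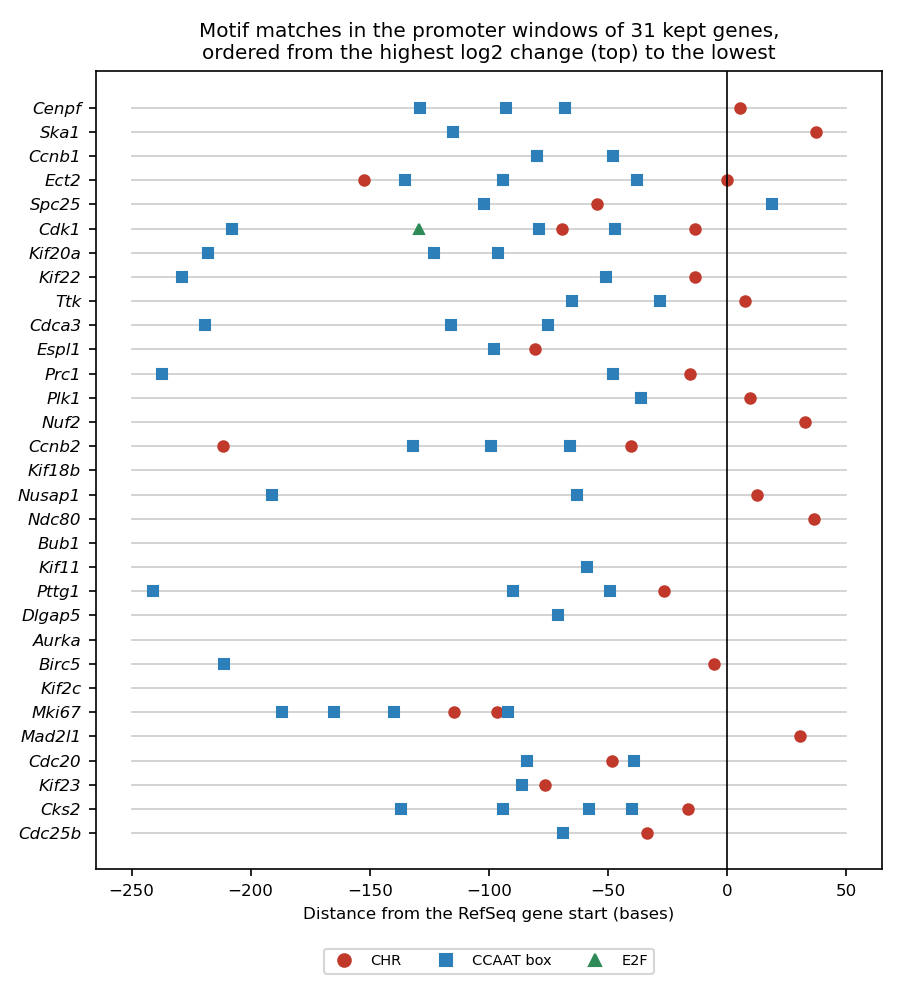
Positions of CHR (red circles), CCAAT (blue squares) and E2F (green triangle) letters relative to the RefSeq gene start (x axis, bases) for the 31 kept genes with a window, ordered by fitted log2 change from the highest (top) to the lowest; the places of Cenpf and Ska1, not well above background on any corn oil array, are not settled. CCAAT matches mostly lie to the left of the CHR match, and rows with CHR letters include Ect2 (1.90) near the top and Cdc25b (-0.05) at the bottom.

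The spindle checkpoint delays anaphase until every chromosome is attached. Of its 3 measured genes limma called 0, with 3 higher at an unadjusted p below 0.05. Ttk encodes Mps1, the kinase that starts the checkpoint signal. It gave 0.0567, 0.108 and 0.106 in corn oil and 0.335, 0.299 and 0.251 in CCl4 (1.76, 1.09 to 2.42; adjusted p = 0.0589). Bub1, a kinetochore kinase of the same pathway, gave 0.157, 0.220 and 0.217 against 0.522, 0.439 and 0.395 (1.20, 0.77 to 1.63; adjusted p = 0.0556). Neither gene had overlapping groups. Mad2l1, which encodes the inhibitor Mad2, overlapped, with 0.150 to 0.244 in corn oil and 0.225 to 0.272 in CCl4 (0.53 ± 0.22, SE; adjusted p = 0.251). In the chromosomal passenger complex, which corrects faulty attachments and guides cytokinesis, Birc5 rose. Birc5 encodes survivin and measured 0.350, 0.443 and 0.363 in corn oil and 0.728, 0.782 and 0.688 in CCl4, a 1.91-fold rise (0.93 ± 0.13; adjusted p = 0.0460). Its kinase partner Aurkb was dim, well above background on 1 corn oil and 3 CCl4 arrays (1.16, 0.25 to 2.07; adjusted p = 0.184).

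Genes of anaphase were higher in every treated animal than in every control, and 1 of the 5 passed. Ube2c encodes the ubiquitin-conjugating enzyme of the APC/C. Its signal was 0.0993, 0.144 and 0.143 in corn oil and 0.443, 0.346 and 0.343 in CCl4, a 2.95-fold rise (1.56 ± 0.19; adjusted p = 0.0325) that was 1.00 on the log2 scale under normexp. Pttg1 encodes securin, which restrains separase. Securin signal was 0.894, 0.852 and 1.22 in corn oil and 2.03, 2.20 and 2.05 in CCl4, and the gene missed the threshold narrowly (1.10, 0.72 to 1.48; adjusted p = 0.0507). Espl1 encodes separase, the protease that cuts cohesin. It gave 0.0499, 0.113 and 0.104 against 0.337, 0.289 and 0.230 (1.75, 0.93 to 2.56; adjusted p = 0.0727), although a second probe gave 0.97. Cdca3, which promotes destruction of the Cdk1 inhibitor Wee1, was at 1.75 (0.87 to 2.64; adjusted p = 0.0830). Cdc20, the activator of the APC/C in mitosis, had the smallest change of the 5, with 0.518 to 0.707 in corn oil and 0.727 to 0.897 in CCl4 (0.45, 0.08 to 0.81; adjusted p = 0.199).

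Kinetochore genes, whose products join chromosomes to microtubules, had a median log2 change of 1.87 over 5 tested, or 1.59 with Ska1 and Cenpf at approximate lower bounds. The 1 that passed was Ska1, whose test rests on corn oil signals not well above background, and of the 3 well above background in corn oil livers limma called 0, with 3 higher at an unadjusted p below 0.05. Ska1, a subunit that holds kinetochores on moving microtubule ends, was not well above background on any corn oil array, at 0.00764, 0.0120 and 0.0164. It was well above background on all 3 CCl4 arrays, at 0.0657, 0.0707 and 0.0580. By an approximate lower bound, itself not tested, this is 3.01-fold above the controls. The limma adjusted p of 0.0251 belongs to the fitted log2 change of 2.49, which uses those dim corn oil signals. The bound sets the CCl4 mean against, on each corn oil array, the higher of the gene's own signal and that array's lowest signal well above background. Probes above that lowest signal can still be not well above background, as Cenpf was on corn oil replicate 3. Under normexp, whose offset of 50 units pulls changes of dim probes toward 0, Ska1 was at 0.39 and did not pass (adjusted p = 0.123, in a range of 0.0221 to 0.221 over 17 alternatives). Cenpf, a large kinetochore and nuclear matrix protein gene, was likewise not well above background on any corn oil array, at 0.00479, 0.0127 and 0.0252. It read 0.0625, 0.0884 and 0.0676 in CCl4, 3.30-fold higher by the same approximate lower bound. Its limma adjusted p of 0.0889 likewise belongs to the fitted log2 change of 2.64 and not to the bound. Under normexp Cenpf was at 0.52 (adjusted p = 0.0673). The Ndc80 complex, the main microtubule attachment, was measured in 3 of its 4 subunits. Spc25 gave 0.0696, 0.172 and 0.135 in corn oil and 0.541, 0.403 and 0.364 in CCl4 (1.87, 1.03 to 2.72; adjusted p = 0.0722). Nuf2 was at 1.55 (0.90 to 2.20; adjusted p = 0.0651) and Ndc80 at 1.33 (0.70 to 1.96; adjusted p = 0.0753). None of the 3 had overlapping groups.

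Of 6 measured kinesins, motor proteins of the spindle and midzone, Kif18b rose. Kif18b destabilises astral microtubules and gave 0.0821, 0.105 and 0.102 in corn oil and 0.301, 0.251 and 0.205 in CCl4, a 2.61-fold rise (1.38 ± 0.18; adjusted p = 0.0366) that was 0.78 under normexp. Kif22, a chromosome arm motor, gave 0.204, 0.356 and 0.286 against 1.18, 0.985 and 0.712 (1.77, 1.13 to 2.41; adjusted p = 0.0556). Kif20a, a motor of cytokinesis, gave 0.105, 0.189 and 0.225 against 0.600, 0.550 and 0.532 (1.77, 1.09 to 2.45; adjusted p = 0.0592). These motors had no overlap between groups. Kif11, which pushes the spindle poles apart, was at 1.14 (0.65 to 1.64; adjusted p = 0.0695). Kif2c, a microtubule depolymerase, was at 0.86 (-0.11 to 1.83; adjusted p = 0.292), with CCl4 replicate 3 at 0.0355, inside the corn oil range of 0.0212 to 0.0411. Kif23, which builds the central spindle with Racgap1, was at 0.39 (-0.14 to 0.92; adjusted p = 0.363), again with CCl4 replicate 3 among the controls.

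Among 4 spindle-associated genes limma called 0, with 4 higher at an unadjusted p below 0.05. Prc1, which bundles midzone microtubules, gave 0.0652, 0.142 and 0.114 in corn oil and 0.353, 0.295 and 0.267 in CCl4 (1.57, 0.86 to 2.28; adjusted p = 0.0722). Nusap1, which stabilises microtubules near chromosomes, was at 1.35 (0.67 to 2.02; adjusted p = 0.0826), Dlgap5, a partner of Aurora A, at 1.01 (0.40 to 1.62; adjusted p = 0.110), and Tpx2, the activator of Aurora A, at 0.76 (0.23 to 1.29; adjusted p = 0.148). Hmmr, another spindle gene, was left untested, at 0.00531 to 0.0203 over the 6 arrays. In cytokinesis, Ect2, which activates RhoA at the cleavage furrow, gave 0.0444, 0.121 and 0.0845 against 0.344, 0.256 and 0.267 (1.90, 1.02 to 2.78; adjusted p = 0.0722). Racgap1, its activator at the midzone, was at 1.18 (0.38 to 1.98; adjusted p = 0.138). Of the chromosome structure genes only Mki67 was measured. Mki67 encodes Ki-67, the coat of mitotic chromosomes used to mark dividing cells. Its signal was 0.629, 0.848 and 0.849 in corn oil and 1.56, 1.29 and 1.21 in CCl4, with the groups apart (0.81, 0.40 to 1.21; adjusted p = 0.0828).

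**Figure D4:**
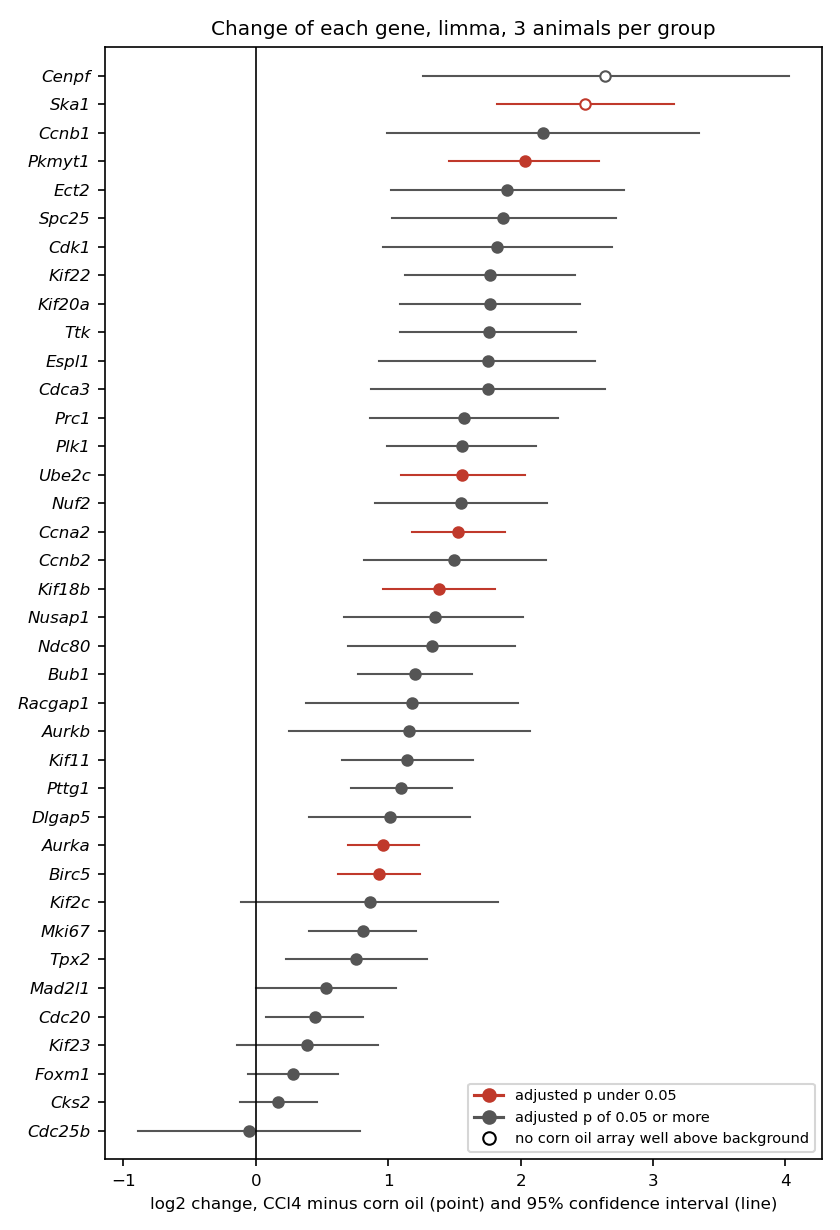
Log2 change (points) and 95% confidence interval (lines) of CCl4 minus corn oil for the 38 genes, from limma with 3 animals per group. Open circles mark Cenpf and Ska1, well above background on no corn oil array. The 7 genes in red passed an adjusted p of 0.05 and include small changes with short intervals, such as Birc5 at 0.93, while larger changes with long intervals, such as Ccnb1 at 2.17, did not pass.

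Probes of 1 gene gave the same direction. Of the 38 genes 11 had several probes well above background on all 6 arrays, and 0 of these had probes of opposite sign. The gap between a gene's lowest and highest such probe had a median of 0.12 on the log2 scale and was largest for Mki67, at 0.90. The 5 Mki67 probes gave 0.81 to 1.71, the brightest being among the lowest, whereas the brighter-on-average Espl1 probe gave 1.75 and the other 0.97. All 3 Cdc25b probes lay between -0.07 and -0.05, and the 3 probes of Ccna2 that were well above background lay between 1.53 and 1.69.

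Other genes of the same machinery gave a mixed picture. Of 64 further G2 and mitosis genes 40 were tested, and limma called 0, with 22 higher and 2 lower at an unadjusted p below 0.05 and a median of 0.62, from Iqgap3 at -0.66 to Ckap2 at 1.69. Every CCl4 array lay above every corn oil array for 24 of the 40 (60.0%, against 11.5% of all genes tested), and below for 2. A change of at least 2-fold upward was seen in 14 (35.0%, against 3.12%). Of 28 S phase and replication genes tested 1 rose, Rrm2 of ribonucleotide reductase (2.38 ± 0.18, SE; adjusted p = 0.0113). At an unadjusted p below 0.05 there were 17 higher and 1 lower. Of the 28, 16 had every CCl4 array above every corn oil array (57.1%, against 11.5% of all genes tested), and 1 had every one below. The S phase median was 0.55, with the lowest value in Mcm10 at -0.82. On CCl4 replicates 1, 2 and 3 the S phase median was 0.58, 0.50 and 0.44 above the corn oil mean. The further G2 and mitosis genes were at a similar level, 0.49, 0.63 and 0.57. The G2 and mitosis genes followed here, chosen with earlier results known, were at 1.59, 1.42 and 1.18. The differences among these lists were not tested. The core APC/C subunits, needed also outside mitosis, had a median of 0.03 over 14 tested, from Anapc11 at -0.29 to Cdc27 at 0.19, and limma called 0, with 0 higher and 1 lower at an unadjusted p below 0.05. Among 10 MuvB, E2F and retinoblastoma family genes limma also called 0, with 1 higher and 1 lower at an unadjusted p below 0.05. Mybl2, the B-Myb gene, had the highest change, with 0.0303, 0.0250 and 0.0469 in corn oil and 0.221, 0.411 and 0.0999 in CCl4 (2.67 ± 0.52, SE; adjusted p = 0.0752), and Tfdp2 the lowest (-0.72 ± 0.14, SE; adjusted p = 0.0722). Among 12 genes that brake the cell cycle limma called 0, with 4 higher and 0 lower at an unadjusted p below 0.05, from Cdkn1a at -0.21 to Ccng1 at 0.92. The D cyclins with Cdk4 and Cdk6, which act in G1, lay between -0.26 (Cdk6) and 0.41 (Ccnd2) with 0 of 5 called and 0 at an unadjusted p below 0.05.

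**Figure D5:**
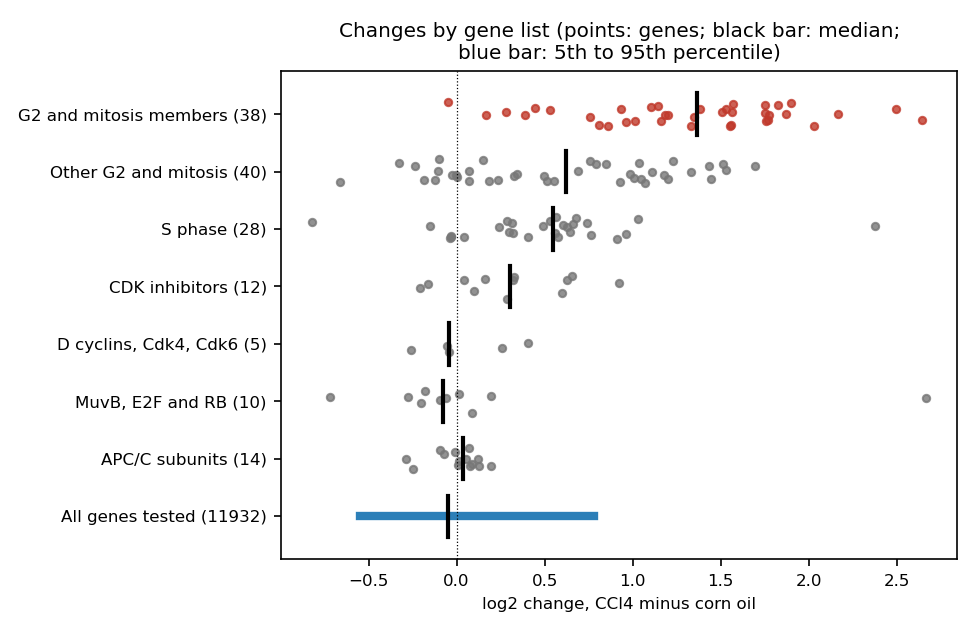
Log2 change of CCl4 minus corn oil (x axis) of each gene (points) in 7 gene lists, with the median as a black bar; the blue bar spans the 5th to 95th percentile of all 11932 genes tested. The G2 and mitosis genes have a median of 1.37, the further G2 and mitosis genes 0.62, the S phase genes 0.55 and the APC/C subunits 0.03.

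Some markers of recruited macrophages were higher in CCl4 livers, and their part in the result was not tested. Of 8 such markers 3 rose, Trem2, Gpnmb and Lgals3, with 4 higher and 0 lower at an unadjusted p below 0.05. The groups did not overlap for 4 of the 8, all higher in CCl4, against 11.5% of all genes tested. They overlapped for Ccr2, Cx3cr1 (log2 change -0.05), Spp1 and Cd9 (0.19). The summed signal of the 8 was 7.69 to 10.8 in corn oil and 37.8 to 45.7 in CCl4. Of this, Lgals3 alone gave 4.53 to 6.2 and 24.1 to 30.0. Of 10 resident macrophage markers 0 passed, with 1 higher and 3 lower at an unadjusted p below 0.05 and sums of 166 to 203 in corn oil and 141 to 175 in CCl4. All 9 hepatocyte markers had negative changes, 0 passed, 0 were higher and 3 lower at an unadjusted p below 0.05, and their sums were 5300 to 5740 and 4210 to 4830. The groups did not overlap for 7 of the 9, all lower in CCl4, against 1893 of the 11932 genes tested. Among 10 T and natural killer cell markers Gzma fell, 1 was higher and 2 lower at an unadjusted p below 0.05, and the sums were 4.46 to 6.05 and 4.24 to 4.58. The 4 B and plasma cell markers gave sums of 2.99 to 3.31 in corn oil and 1.96 to 2.53 in CCl4, with 0 called and 2 lower at an unadjusted p below 0.05. Neutrophil markers gave 2.17 to 4.95 and 1.28 to 3.74, with 0 of 3 called by limma or at an unadjusted p below 0.05, and Elane and Ltf were well above background on 0 arrays. Limma also called 0 of 5 endothelial, 7 stellate, 5 cholangiocyte and 6 erythroid markers. At an unadjusted p below 0.05 these lists had 0, 2, 1 and 0 higher and 1, 0, 0 and 1 lower. Their sums were 40.4 to 47.4, 13.6 to 15.2, 1.41 to 1.54 and 584 to 940 in corn oil, and 32.7 to 39.1, 13.2 to 18.9, 1.78 to 4.49 and 320 to 1020 in CCl4. In these lists 0, 3, 1 and 1 markers did not overlap as higher in CCl4, and 1, 0, 0 and 1 as lower. For resident macrophage, T and natural killer, B and plasma, and neutrophil markers these counts were 1, 1, 0 and 0 higher and 1, 2, 2 and 0 lower. The highest cholangiocyte sum is that of CCl4 replicate 3, where Spp1, also among the 8 recruited macrophage markers, read 2.96, against 0.219 and 0.492 in the other treated animals.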

How the data were processed

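Per the labels, Cy3-labelled cRNA from 0.2 µg of liver RNA per rat was hybridised to Agilent arrays. The deposited scanner files hold intensity values that the authors obtained with Agilent Feature Extraction (version 10.7.1.1 per the file headers), background-subtracted but not scaled between arrays. The authors also deposited values as a linear ratio, proportional to the processed signal with a divisor of 583.3 to 676.5, near each array's 75th percentile. That scaling was inferred from the values and was used as an alternative.

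Probes (61537 after leaving out 1439 control spots) were named through unversioned RefSeq accessions in a GRCr8 gene table; 28206 (45.8%) had 1 symbol. The array design names rn4, so promoter coordinates and sequences are RefSeq's on GRCr8. The 26 probes with an outlier flag were dropped. The 75th percentile of log2 signal was subtracted on each array. limma 3.58.1 in R 4.3.3 (lmFit, eBayes, two-sided) was fitted on 11932 genes with Benjamini-Hochberg adjustment. The test was checked on simulated data. The labels describe separate animals, 3 per group, and this number limits the precision. None of the probes used for the 38 genes was saturated.

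The gene members, the lists and the rule for named genes were chosen with earlier results of these data known. Every kept member is described. Those past the threshold and Ccnb1, Cdk1, Plk1, Mki67, Foxm1 (Top2a had no probe matched) and the member with the lowest change get values on all arrays, and other members shown in full were chosen after their values were seen. Other lists are named by called genes and extremes. Lists were described by counts and medians and were not tested. The random block used statmod 1.5.0, and matplotlib 3.10.9 under Python 3.11.15 drew the figures. Normexp used median spot signals, since mean signals were not among the columns used here.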

Additional observations from a re-analysis of the deposited data

How the results depend on the processing

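The direction of 37 of the 38 genes held in every alternative that measured them. Cdc25b, at -0.05, turned to 0.0038 under normexp and to 0.06 with slide as a fixed block or on the first slide only, ranged from -0.35 to 0.30 when an array was left out (0.11 without the second corn oil array), and passed in none. The median log2 change was 0.78 under normexp and 1.16 to 1.53 when an array was left out. The 7 calls were 19 under normexp, 13 with a variance trend or with the mean of a gene's probes, 12 with the filter on all 6 arrays, 11 with slide as a random block and 4 without a filter on dim probes. They were 0 with slide as a fixed block, within the first slide or with the replicate number as a block, and 0 to 9 when an array was left out. Over all genes tested the 76 calls were 217 under normexp, 156 with a variance trend, 140 with the filter on all 6 arrays, 4 with slide as a fixed block, 0 within the first slide, 10 with the replicate block and 2 to 241 when an array was left out. The smallest adjusted p of a member in the fits with no member called was 0.0522 to 0.168. Same-numbered animals did not deviate together (correlations of -0.052, 0.164 and 0.018). These values show no pairing by number, but with 3 animals per group they cannot exclude one. Leaving out 1 of 3 arrays assumes that the rest vary alike. Dim probes such as those of Ska1, Cenpf and Aurkb limit what can be measured in corn oil livers.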
